A study of Mus musculus with 12 samples.

Results

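The cytosolic ribosomal proteins were followed in mouse liver through 82 genes: the protein-coding genes whose symbol is that of a large-subunit protein (Rpl or Rplp, 50 genes) or a small-subunit protein (Rps or Rpsa, 32 genes), taken by symbol from 25164 genes listed, of which 16681 are protein-coding. The kinases of the Rps6k family, whose symbols begin in a similar way, were left out. The choice used names only and no measured value. Of the 82 members, 79 passed the low-count filter of edgeR and were tested, and Rpl24, Rpl3l and Rpl39l did not pass it.

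The series holds liver RNA libraries from 12 mice, 4 in each of 3 groups. Control animals were kept for 14 weeks on a normal diet, and HFD animals for the same time on a high-fat diet. Fenofibrate animals had 14 weeks of high-fat feeding too, and after the first 10 weeks received the drug by gavage, for 4 weeks. Fenofibrate lowers blood lipids and is an agonist of PPARA, a nuclear receptor of hepatocytes. The HFD group is therefore the one that shares its diet with the Fenofibrate group, and the labels name no vehicle gavage in HFD or Control mice. The study assigned 10 mice to each group, and only 4 libraries per group are at hand. The labels and design text do not state strain, sex, age or drug dose. Nothing says how mice shared cages, dissection days or sequencing runs, so a p-value speaks only to variation among the libraries at hand.

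Ribosomal proteins assemble with ribosomal RNA into a small subunit, which reads the messenger RNA, and a large subunit, which forms peptide bonds. Cells make them in near-equal numbers, and their messenger RNAs are among the most abundant of most tissues. Many of these messenger RNAs begin with a C followed by a run of pyrimidines (the TOP tract), through which the kinase complex mTORC1 and the binding protein LARP1 control their translation. Their promoters are short and housekeeping in kind. Liver renews its secreted proteins at a high rate and depends on this machinery.

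The starts of the genes that carry the differences described further on are shown first, because the TOP tract lies there. Each is 30 bases of the gene's strand from RefSeq on GRCm38.p6, 15 before the annotated start and 15 from it on, with capitals marking a C followed by at least 6 pyrimidines. The starts of Rplp2, Rpl12 and Rpl28 lie inside the deposited gene, 281, 153 and 91 bases from its end, and the 100 bases that begin 85 before each are annotated as exon, so only 30 are shown. The starts of Rpl22l1 and Rps9 lie inside it too, by 72 and 48 bases, with 87 and 63 of such 100 bases annotated as exon. Rplp2 (chr7:141447636-141447665, + strand) fell in HFD, while Rpl28 (chr7:4792950-4792979, + strand) and Rps9 (chr7:3704026-3704055, + strand) had lower group means there without passing (adjusted p = 0.081 and 0.0891). Rpl12 (chr2:32961697-32961726, + strand), Rps21 (chr2:180257364-180257393, + strand) and Rpl22l1 (chr3:28805493-28805522, + strand) fell in Fenofibrate against Control.
Rplp2: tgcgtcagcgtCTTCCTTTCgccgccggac
Rpl28: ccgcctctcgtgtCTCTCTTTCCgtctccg
Rps9: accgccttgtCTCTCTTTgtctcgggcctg
Rpl12: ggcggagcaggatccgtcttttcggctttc
Rps21: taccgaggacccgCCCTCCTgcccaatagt
Rpl22l1: gtgcggcgcaagcccgttCTCTTCCCacgg

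A tract of that definition was in 5 of these 6 windows, and the Rpl12 window held none. RefSeq promoters of 300 bases were matched for 62 of the 82 members. A tract beginning within 20 bases of the start, on the gene's strand, was in 32 of the 62 (51.6%), against 20.3% of 32851 mouse promoters of that length. The ETS core CCGGAAG, searched on both strands, was in 40.3% of member promoters and 8.86% of all. The motif TCTCGCGA was in 16.1% and 0.995%, the GC box GGGCGG in 59.7% and 35.7%, and the YY1 core AAGATGG in 14.5% and 6.34%, again on both strands. The TATA motif TATAAA was in 9.68% of member promoters and 13.6% of all. These matches are letters in a window and do not show binding. The motifs were chosen with the data known, and no test was made of them.

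The longer windows that follow show how these letters are laid out in a member that fell in Fenofibrate against Control (Rps21), in a paralogue that was higher than its main copy (Rps27l), in an abundant member (Rps18) and in 2 others, one with the motif TCTCGCGA (Rpl26) and one with none of the motifs (Rplp0). Each is 100 bases, 85 before the annotated start and 15 from it on, with capitals marking the ETS core, GC box, TCTCGCGA or tract. The positions are chr2:180257294-180257393 (+ strand) for Rps21, chr9:66946001-66946100 (+ strand) for Rps27l, chr17:33955651-33955750 (- strand) for Rps18, chr11:68901481-68901580 (+ strand) for Rpl26 and chr5:115559382-115559481 (+ strand) for Rplp0. In Rps21 the GC box, read on the other strand, overlaps the tract, and in Rpl26 the matches to TCTCGCGA, 1 on each strand, overlap. The Rps18 start lies 336 bases inside the deposited gene, and 27 of the 100 bases of its window are annotated as exon.
Rps21: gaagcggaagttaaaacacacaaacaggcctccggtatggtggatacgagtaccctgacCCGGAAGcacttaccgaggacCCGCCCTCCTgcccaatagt
Rps27l: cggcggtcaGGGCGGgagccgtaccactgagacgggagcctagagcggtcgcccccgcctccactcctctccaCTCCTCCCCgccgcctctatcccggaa
Rps18: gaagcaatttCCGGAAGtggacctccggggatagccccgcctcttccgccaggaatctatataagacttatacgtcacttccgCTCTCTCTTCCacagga
Rpl26: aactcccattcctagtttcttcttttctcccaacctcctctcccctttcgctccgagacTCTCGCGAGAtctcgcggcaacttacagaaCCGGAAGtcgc
Rplp0: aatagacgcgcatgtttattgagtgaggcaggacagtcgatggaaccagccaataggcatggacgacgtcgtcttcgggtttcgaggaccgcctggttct

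Total counts per library ran from 15797016 to 18514481. Single genes are given in CPM, read counts relative to a library size (as CPM) scaled by TMM, the edgeR method that sets a library's size by the bulk of its genes. TMM factors ran from 0.884 in Control library 2 to 1.16 in Fenofibrate library 3, and 3 of the 4 Fenofibrate libraries had factors above those of every other library. Marker levels and sums in CPM are relative to total counts, without TMM scaling. Hepatocyte markers summed to between 141200 and 151100 CPM in the Control libraries. HFD libraries ran from 119800 to 130200 CPM and Fenofibrate libraries from 113600 to 132400 CPM. By this sum all Control libraries were above all others. Single markers were mixed: of 12 in HFD against Control, 8 had a negative log2 change and 4 a positive one (-2.61 to 0.29, edgeR). In Fenofibrate against Control all 12 were negative. Alb overlapped between Control (93050 CPM in library 3) and HFD (96120 CPM in library 1). The part of these marker levels in the members' lower levels was not tested. Markers of striated muscle summed to 257 CPM in the first Fenofibrate library and to 209.5 CPM in the third, where no other library exceeded 1.03 CPM. Pancreatic acinar markers reached 2107 CPM in Fenofibrate library 1 (6.24 to 31.1 CPM elsewhere), and erythroid markers 1193 CPM (202.5 to 485.9 CPM elsewhere). Counts of genes that passed by edgeR in the Fenofibrate comparisons are given with and without these 2 libraries. In whole liver, fewer cells of a type and less RNA per cell cannot be told apart.

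Ribosomal protein genes took a little over 1% of all counts in every group, and the groups overlapped. The share was 1.12%, 1.70%, 1.44% and 1.53% in the 4 Control libraries, 1.35%, 1.27%, 1.27% and 1.52% in HFD and 1.29%, 1.43%, 1.35% and 1.25% with fenofibrate. Group means were 1.45% ± 0.243 (SD, n = 4), 1.35% ± 0.119 and 1.33% ± 0.0787. Control library 1 was the lowest of the 12 and Control library 2 the highest. These shares use total counts without TMM scaling. Counts in large-subunit genes over counts in small-subunit genes varied little: the ratio was 1.374 ± 0.00866 in Control, 1.379 ± 0.00673 in HFD and 1.373 ± 0.00902 with fenofibrate.

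**Figure D1:**
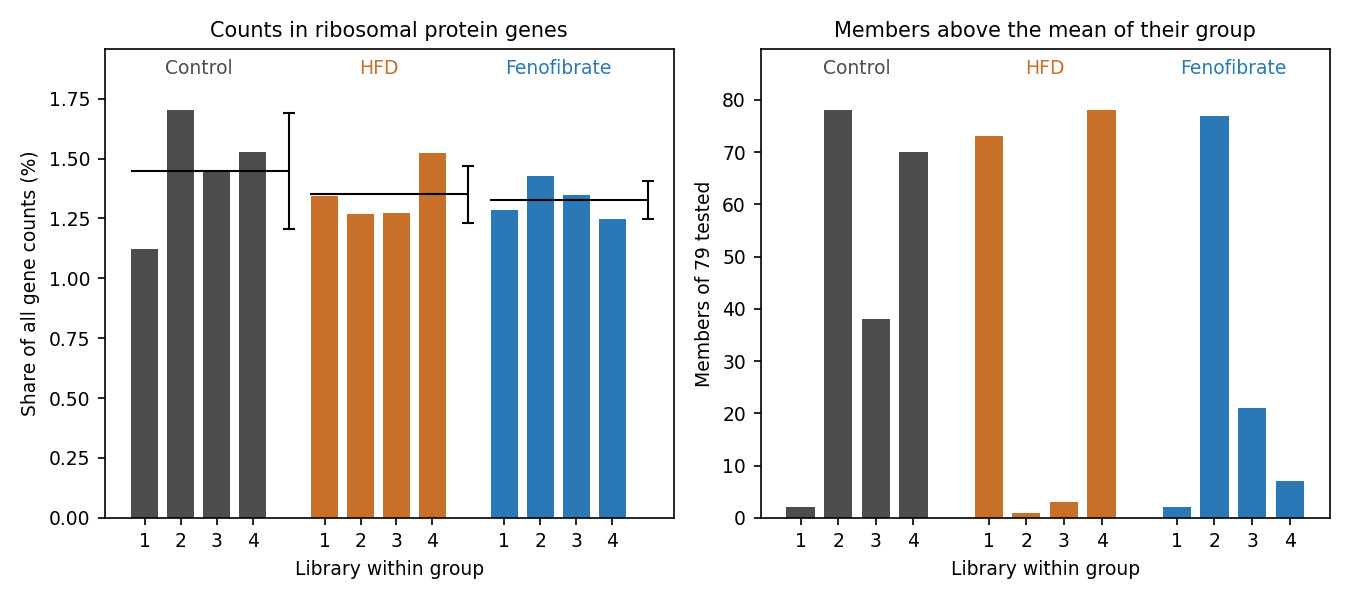
Left, share of all gene counts (%) in the 82 ribosomal protein genes for each library, with a line at the group mean and a bar of 1 SD (n = 4); right, number of the 79 tested members above the mean of their own group. The share ranged from 1.12% in Control library 1 to 1.70% in Control library 2, and at most 7 members were above their group mean in 5 libraries and at least 70 in 5 others.

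Per length, using 1 principal transcript for each gene, Rpl10 led the members at 628 CPM per kb over the 12 libraries. Rpl10 encodes uL16, a large-subunit protein that joins late in assembly. After it came Rps2 at 544 CPM per kb, Rplp1 at 487, Rps6 at 436, Rps18 at 416 and Rpl13 at 409. Rps6 is the small-subunit protein phosphorylated by the S6 kinases, Rps2 lies near the entry of the messenger RNA channel, and Rplp1 is an acidic protein of the stalk, the arm of the large subunit that recruits elongation factors. The transcript choice sets these levels, so neighbours in the order are not separated by a test.

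Some members were close to undetected. Rpl39l, a paralogue of Rpl39 known from testis, had 4 counts over the 12 libraries. Rpl24, which encodes a protein of every large subunit, had 53 counts in all, and Rpl13a, another such protein, had 508. Of the exon length of Rpl24, 47.0% lies under other annotated genes, and 35.4% of that of Rpl13a. Rpl23a (948 counts) and Rpl35 (1851 counts) were low as well, with 62.3% and 66.2% under other genes, among them Tlcd1 (4625 counts) and Arpc5l (6233 counts) respectively. The overlap was looked at after these levels were seen, and it does not sort the members fully: 26.7% of Rpl5 (59090 counts), 25.3% of Rpl31 (22946 counts) and 24.8% of Rps25 (34670 counts) lies under other genes as well. No overlap was found for 44 members, and 15 had over 10%. No source used here gives the setting for reads over shared exons or for strand, so the levels of Rpl24, Rpl13a, Rpl23a and Rpl35 are uncertain.

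Processed copies of ribosomal protein genes are common in mammalian genomes and can take or lend reads. The tables list 137 ribosomal protein pseudogenes with 75261 counts, equal to 2.65% of the counts of the members. Within a member and its named pseudogenes together, the pseudogenes held 33.2% of counts for Rps10, 31.9% for Rpl14 and 31.8% for Rpl21, so these 3 levels are uncertain by that much.

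Most of the spread between libraries of a group was shared by nearly all members. Of the 79 tested members, 2, 78, 38 and 70 were above the mean of their group in Control libraries 1 to 4. The numbers were 73, 1, 3 and 78 in HFD and 2, 77, 21 and 7 with fenofibrate. Among all genes tested, 48.8% to 53.3% were above their group mean in any library. In most libraries the members thus lay largely on 1 side together, and their median log2 deviation ran from -0.50 in Control library 1 to 0.37 in Control library 2. Control library 3 was about evenly split, at a median of -0.003.

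Other lists leaned the same way in most of these libraries, some of them more weakly and with exceptions. Nuclear genes of the respiratory chain (73 tested) were above their group mean in 11%, 91.8%, 74.0% and 64.4% of cases in Control libraries 1 to 4, in 94.5%, 9.59%, 5.48% and 84.9% in HFD and in 6.85%, 91.8%, 41.1% and 21.9% with fenofibrate. Mitochondrial ribosomal proteins (77 tested), which serve a separate ribosome, were above it in 24.7% and 84.4% of cases in Control libraries 1 and 2 and in 29.9% and 88.3% in Fenofibrate libraries 1 and 2. In Fenofibrate library 1, where 2 members were above, 72.2% of elongation factors and other TOP messenger RNAs and 50% of initiation factors were above. Both lists leaned with the members in most other libraries. In Control libraries 1 and 2, 22.2% and 83.3% of the first list and 37.5% and 81.2% of the second were above. Ribosome biogenesis factors were above in 44.1% of cases in Control library 1, 45.6% in HFD library 1 and 50% in HFD library 3, where 2, 73 and 3 of the 79 members were. They leaned with the members in Control library 2 (79.4%) and Fenofibrate library 2 (76.5%). The part of RNA quality or library preparation in these shared shifts was not tested.

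**Figure D2:**
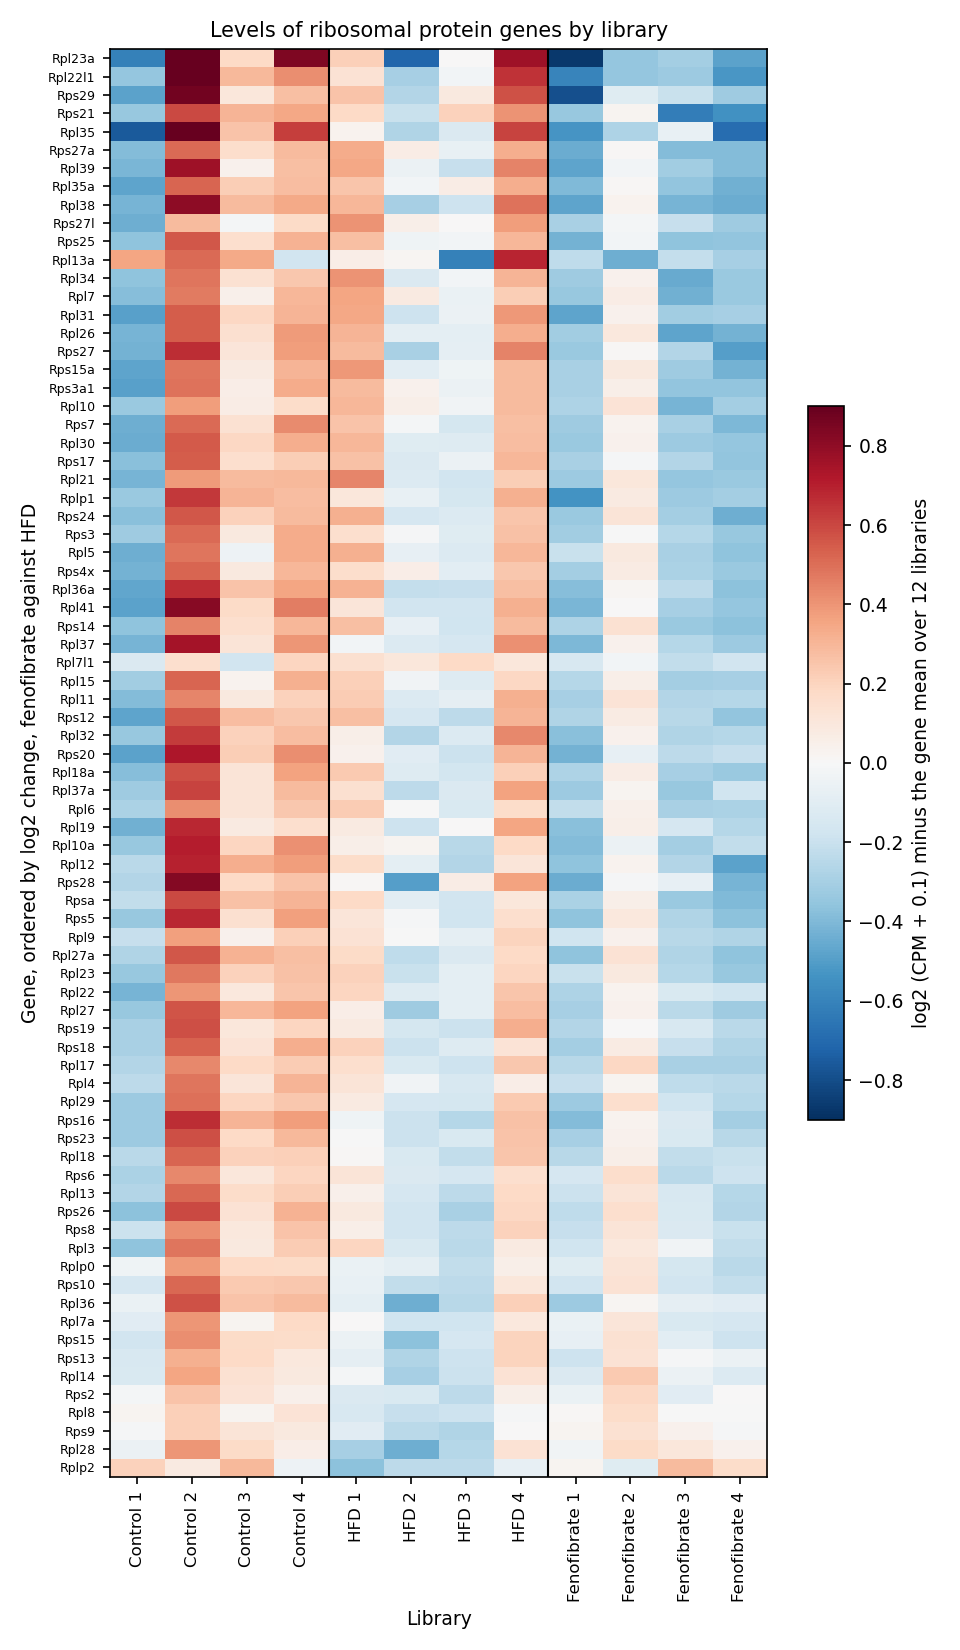
Log2 level of tested members (rows, 78 of the 79 genes) in each library (columns) minus its mean over the 12 libraries, on the log2(CPM + 0.1) scale with TMM scaling, ordered by the change of Fenofibrate against HFD. Control library 2 is high and Control library 1 and Fenofibrate libraries 1, 3 and 4 are low over most rows. Each row is centred on its own mean, so rows cannot be compared by level.

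Against the members' own total this shared spread largely fell away. The median within-group coefficient of variation of a member was 18.4% for its level and 6.37% for its share of the members' counts. For levels it ran from 6.19% for Rpl8, which encodes uL2 beside the peptidyl transferase centre, to 40.3% for Rpl23a, whose counts are low and whose exons overlap Tlcd1. The share of the members' counts is independent of library scaling, and it is used below beside the levels.

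The first comparison asked how the members differed between livers of HFD and Control mice. Rplp2, which encodes an acidic stalk protein that pairs with the product of Rplp1, was the 1 member that passed, and it was lower in HFD. Of 79 members, 0 rose and 1 fell at an adjusted p under 0.05, where 6.13% of all genes tested rose and 6.64% fell. Unless another tool is named, adjusted p-values come from the quasi-likelihood test of edgeR, adjusted by the Benjamini-Hochberg method over the 13477 genes tested. At an unadjusted p under 0.05, 0 rose and 7 fell, against 12.7% and 14.2% of all genes. DESeq2 gave 0 rising and 3 falling members (Rpl8, Rplp2 and Rps9), and limma-voom 0 and 1. The shares of all genes called by these 2 tools are not given here, so their counts stand without a background. By edgeR the shares of members called were thus below the background in both directions.

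Rplp2 (ENSMUSG00000025508, chromosome 7, 141447370 to 141451585) stood at 65.7, 60.2, 69.8 and 55.1 CPM in Control, at 44.1, 48.4, 48.3 and 54.0 CPM in HFD and at 58.0, 52.9, 69.4 and 63.9 CPM with fenofibrate. All 4 HFD libraries were below all 4 Control libraries, with HFD library 4 and Control library 4 close together. The log2 change was -0.36 ± 0.11 (SE; adjusted p = 0.0358). The adjusted p was 0.0943 without Control library 1, 0.0953 without Control library 3, 0.0994, 0.081 and 0.0825 without HFD libraries 1, 2 and 3, and 0.0575 and 0.0507 without Fenofibrate libraries 1 and 4, so the call rests on each of these 7 libraries. Without Fenofibrate libraries 1 and 3 together it was 0.0543, and with total counts in place of TMM 0.154.

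The other stalk genes and the small-subunit gene Rpsa did not pass. Rplp0, the stalk base, was at 500.0, 669, 581 and 577 CPM in Control and at 492, 483, 441 and 531 CPM in HFD (log2 change -0.26 ± 0.11, adjusted p = 0.149). Rplp1 had means of 283 ± 73.5 CPM in Control and 247 ± 36.8 in HFD. Rpsa, which is also known as a laminin receptor, had 556 ± 124 and 467 ± 53.3 CPM. The libraries of these 3 genes overlapped between the groups.

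Of the 79 members, 72 had a negative log2 change, with a median of -0.17 where all genes tested had -0.02. This lean depends on single Control libraries. In Control library 2, 78 members were above their group mean, and without it the median was -0.02. Control library 1 lay the other way, with 2 members above. Without it Rpl12, Rpl36, Rps10 and Rps16 fell at an adjusted p under 0.05 and Rplp2 did not pass. The share of all genes called in that refit is not given here. Members with an unadjusted p under 0.05 besides Rplp2 were Rpl36, Rpl28, Rps10, Rplp0, Rps9 and Rpl8, named here after their values were seen. Rps9, which lies at the messenger RNA entry of the small subunit, was at 228, 266, 249 and 244 CPM in Control and at 214, 194, 190.0 and 231 CPM in HFD. Only HFD library 4 reached above the lowest Control library (log2 change -0.25 ± 0.09, adjusted p = 0.0891). Rpl28, a large-subunit protein of eukaryotes, was at 144, 197, 169 and 156 CPM in Control and at 122, 111, 125 and 164 CPM in HFD (log2 change -0.35 ± 0.13, adjusted p = 0.081), with HFD library 4 inside the Control range.

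The next comparison asked how the members differed between fenofibrate-treated and untreated mice on the high-fat diet. None passed by edgeR: 0 of 79 rose and 0 fell, where 6.89% and 6.59% of all genes did. At an unadjusted p under 0.05, 3 rose (Rplp2, Rpl28 and Rps9) and 14 fell, against 15.8% and 15.5% of all genes. DESeq2 gave 1 rising member (Rplp2) and 4 falling members (Rpl7l1, Rps21, Rps27a and Rps27l), and limma-voom 0 and 0, again without a background for these tools. The median log2 change was -0.26 over the members and 0.01 over all genes, with 68 of 79 members negative. With Fenofibrate libraries 1 and 3 left out, the members' median was -0.17, 65 were negative and 0 passed.

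This comparison depended on how libraries were scaled. With total counts in place of TMM, 6 members rose (among them Rpl28, Rpl8, Rplp2, Rps2 and Rps9) and 0 fell, and the members' median was -0.09. The share of all genes called with that scaling is not given here. That scaling moved the median of all genes to 0.18 in this comparison, to 0.20 in Fenofibrate against Control and to 0.03 in HFD against Control, and under either scaling the median of the members lay below that of all genes in each comparison. The HFD libraries enter both this comparison and the last, and values are set side by side without relating them.

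Rplp2 had the largest positive change among members, at a log2 change of 0.33 ± 0.11 against HFD (adjusted p = 0.0545). Fenofibrate libraries 1, 3 and 4 were above all HFD libraries, and Fenofibrate library 2, at 52.9 CPM, was inside the HFD range. Without Fenofibrate libraries 1 and 3 the change was 0.27 (adjusted p = 0.353). Rps9, at 234, 253, 236 and 228 CPM with fenofibrate, had a log2 change of 0.20 ± 0.09 (adjusted p = 0.156), and Fenofibrate library 4 lay inside the HFD range. Rpl28, at 146, 169, 161 and 154 CPM, had 0.27 ± 0.13 (adjusted p = 0.151). Against Control the log2 changes of Rplp2, Rps9 and Rpl28 were -0.04, -0.05 and -0.08, and with total counts in place of TMM they were positive.

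Rps27l, a paralogue of Rps27 that is known as a p53 target, was on the other side. It stood at 73.1, 120.7, 98.2 and 112 CPM in Control, at 131, 103, 99.5 and 129 CPM in HFD and at 80.9, 98.0, 86.0 and 79.6 CPM with fenofibrate. All 4 Fenofibrate libraries were below all 4 HFD libraries (log2 change -0.43 ± 0.14, adjusted p = 0.061), while HFD and Control overlapped (0.20 ± 0.14, adjusted p = 0.422). Rps27a, which encodes a ubiquitin fused to a small-subunit protein, had means of 173 ± 23.6 CPM in HFD and 125 ± 19.7 with fenofibrate (-0.47 ± 0.17, adjusted p = 0.0691). It is named after its values were seen, as is the highest Fenofibrate value of 154.5 CPM in library 2, which lies inside the HFD range (146.3 to 193.5 CPM). Without Fenofibrate libraries 1 and 3 the log2 changes against HFD were -0.38 for Rps27l, -0.35 for Rps27a, 0.22 for Rps9 and 0.31 for Rpl28, with adjusted p from 0.352 to 0.43.

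**Figure D3:**
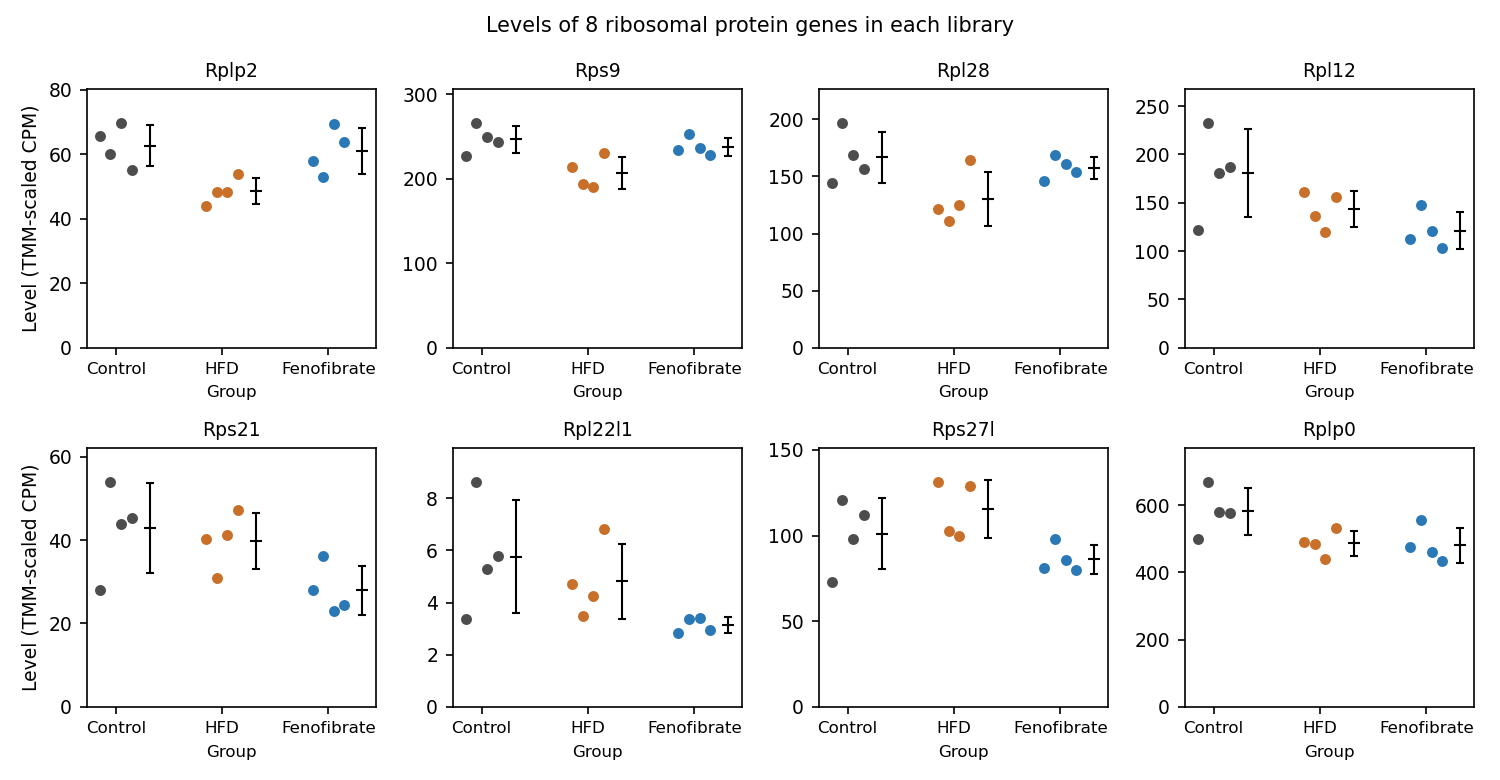
TMM-scaled CPM of single members in each of the 12 libraries, with the group mean and 1 SD (n = 4) as a bar. The HFD points of Rplp2 lie below all Control points, and the Fenofibrate points of Rps27l lie below all HFD points, while the Fenofibrate and Control points of Rpl12, Rps21 and Rpl22l1 overlap through Control library 1.

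Shares of the members' own counts gave another view. The share of Rplp2 overlapped between the groups: Control ran from 0.313% to 0.584%, HFD from 0.293% to 0.392% and Fenofibrate from 0.366% to 0.596%. Rpl10 took 3.49%, 3.32%, 3.43% and 3.39% of the members' counts in Control, 4.03%, 4.04%, 3.91% and 3.81% in HFD and 3.55%, 3.73%, 3.17% and 3.52% with fenofibrate. Every HFD library was above every other library. The same order held for Rps27l, at 0.653% ± 0.0239 in Control, 0.827% ± 0.031 in HFD and 0.705% ± 0.0249 with fenofibrate, and for Rps27a, at 1.11% ± 0.0479, 1.24% ± 0.0454 and 1.02% ± 0.0389. Shares of Rpl10 can change while its level does not pass: its log2 change in level was 0.07 ± 0.15 for HFD against Control (not passing) and -0.36 ± 0.15 for Fenofibrate against HFD (adjusted p = 0.116), the latter -0.22 without Fenofibrate libraries 1 and 3 (adjusted p = 0.567).

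Rpl28, Rps9, Rpl8 and Rpl14 had the opposite order for the drug. Rpl28 took 0.809% to 1.04% of the members' counts in HFD and 1.17% to 1.38% with fenofibrate. Rps9 took 1.49% ± 0.0559 and 1.96% ± 0.136, and Rpl8 1.98% ± 0.151 and 2.55% ± 0.145. Rpl14 took 0.761% ± 0.0348 and 0.915% ± 0.0162. In each of these the HFD and Fenofibrate libraries did not overlap, while Control libraries reached into both ranges for Rpl28, Rps9 and Rpl14. For Rpl8 no Control library lay inside the Fenofibrate range, and Control library 1 was above it at 2.72%. These members were picked from all 82 after their values were seen, so the shares are a description with no test. Where all 4 Fenofibrate libraries lay apart from HFD, libraries 2 and 4 do so by construction, which is no check of these shares.

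The third comparison set Fenofibrate against Control, which differ in diet and drug together. Rpl12, Rps21 and Rpl22l1 fell, and none rose. The shares called were 0 and 3 of 79, against 4.86% of all genes rising and 4.31% falling. At an unadjusted p under 0.05, 0 rose and 53 fell, against 11.9% and 12.7% of all genes. All 79 members had a negative log2 change, with a median of -0.38 where all genes had -0.01. Since the members move together between libraries, as given above, the 53 are not independent of each other.

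This count turned on single libraries. Without Control library 1, the library with the lowest share, 56 members fell at an adjusted p under 0.05, and without Control library 2, 3 or 4 or Fenofibrate library 1, 3 or 4, 0 did. Without Fenofibrate library 2, the highest of its group, 8 fell. Without Fenofibrate libraries 1 and 3, 0 fell, the median was -0.28 and 77 members were negative. With total counts in place of TMM 0 fell, the median was -0.17 and 67 members were negative. DESeq2 gave 8 falling members and 1 rising, Rpl3l, and limma-voom 0 falling and 0 rising. The shares of all genes called in these refits are not given here, so the counts of members stand without a background.

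Rpl12 (ENSMUSG00000038900, chromosome 2, 32961559 to 32965345) encodes uL11 at the base of the stalk. It stood at 122, 232.9, 181 and 187 CPM in Control, at 162, 136, 120.1 and 156 CPM in HFD and at 112, 148, 120.5 and 103 CPM with fenofibrate. Control libraries 2 to 4 were above every Fenofibrate library, and Control library 1 was among them. As shares of the members' counts, every Control library was above every HFD and Fenofibrate library. Control library 1 (1.085%) was close to HFD library 1 (1.074%), and the highest Fenofibrate share was 1.035% in library 3. These shares are a description with no test. The log2 change was -0.58 ± 0.17 (adjusted p = 0.0412), and -0.51 without Fenofibrate libraries 1 and 3 (adjusted p = 0.278).

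Rps21 (ENSMUSG00000039001, chromosome 2, 180257377 to 180258445) encodes a small-subunit protein of eukaryotes. Its levels were 28.1, 53.95, 44.0 and 45.3 CPM in Control, 40.3, 30.9, 41.1 and 47.1 CPM in HFD and 28.1, 36.2, 23.1 and 24.4 CPM with fenofibrate. Control library 1 again lay within the Fenofibrate range, and the other 3 Control libraries lay above it. As shares of the members' counts, Control library 1 (0.2496%) was below Fenofibrate library 2 (0.251%). The log2 change was -0.62 ± 0.19 (adjusted p = 0.0493), and -0.48 without Fenofibrate libraries 1 and 3 (adjusted p = 0.35). The call is close to the threshold: the adjusted p was 0.0505 with RLE size factors, 0.0502 with upper-quartile factors, 0.0517 with library sizes that leave out the 20 most abundant genes and 0.0539 with a filter at a mean of 1 CPM. Against HFD the log2 change was -0.51 ± 0.19 (adjusted p = 0.075).

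Rpl22l1 (ENSMUSG00000039221, chromosome 3, 28805436 to 28807424) is the paralogue of Rpl22, whose product is known to hold the paralogue's messenger RNA down. It was the lowest of the 3, at 3.36, 8.63, 5.29 and 5.79 CPM in Control, 4.72, 3.48, 4.24 and 6.82 CPM in HFD and 2.82, 3.36, 3.41 and 2.96 CPM with fenofibrate. Every HFD library was above every Fenofibrate library, with HFD library 2 and Fenofibrate library 3 close together, and Control library 1, at 60 counts, was inside the Fenofibrate range. As shares of the members' counts, HFD library 2 (0.0274%) was below Fenofibrate library 3 (0.0293%). The log2 change against Control was -0.87 ± 0.26 (adjusted p = 0.0436), and -0.85 without Fenofibrate libraries 1 and 3 (adjusted p = 0.236).

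Of the other stalk genes and Rpsa, Rpsa had a log2 change of -0.50 ± 0.15 (adjusted p = 0.0561) and Rplp1 -0.52 ± 0.18 (adjusted p = 0.0844), while Rplp0 had -0.27 ± 0.11 (adjusted p = 0.139). Rpsa was at 397, 699, 557 and 573 CPM in Control and at 380.1, 481, 367 and 352 CPM with fenofibrate, with Control library 1 inside the Fenofibrate range. With Fenofibrate libraries 1 and 3 left out the changes were -0.40 for Rpsa (adjusted p = 0.355) and -0.35 for Rplp1 (adjusted p = 0.495). The 3 stalk genes thus had unlike values in the same libraries: the log2 change of Rplp2 against Control was -0.04 ± 0.11, and the difference between the stalk genes was not tested.

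**Figure D4:**
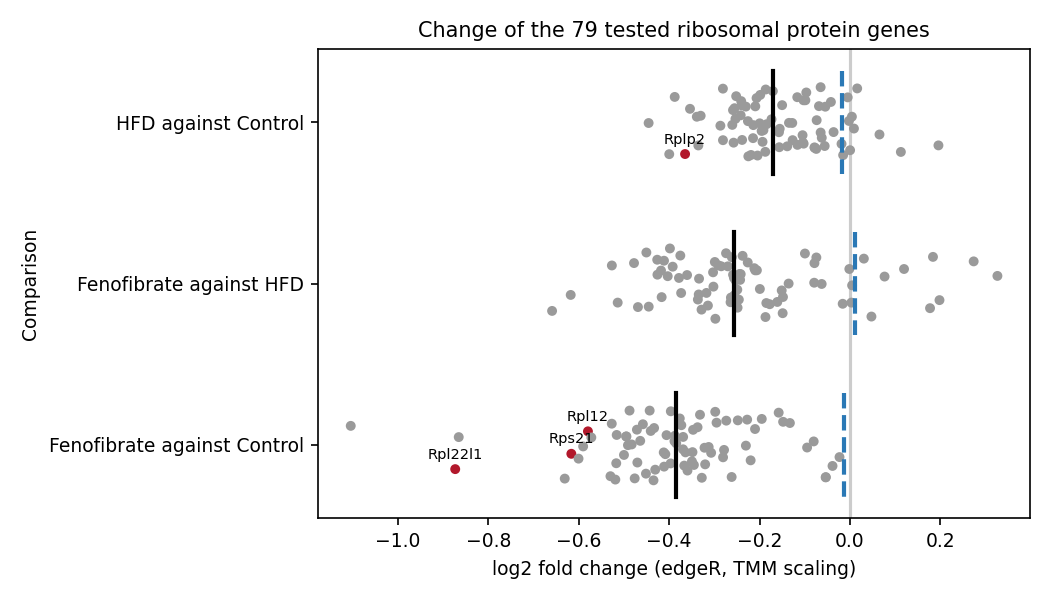
Log2 change of each of the 79 tested members (points) in the 3 comparisons, with TMM scaling; black lines are the members' medians, dashed lines the medians of all genes tested, and red points passed at an adjusted p under 0.05. Rplp2 is the red point of HFD against Control, Fenofibrate against HFD has none, and Rpl12, Rps21 and Rpl22l1 are those of Fenofibrate against Control, where all 79 points lie below 0.

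Paralogues were set against their main copies per length, a comparison that scaling leaves alone. Rps27l stood at 109% ± 11.4 of Rps27 in Control, 134% ± 15.8 in HFD and 128% ± 7.87 with fenofibrate, so in this liver the paralogue was about level with or above the main copy. The groups overlapped. Rps27rt, a retrogene copy of Rps27, had 14.7 ± 4.95 CPM in Control, so reads of Rps27 may be split between them. Rpl22l1 stood at 21.7% ± 3.79 of Rpl22 in Control, 18.9% ± 3.59 in HFD and 14.4% ± 0.855 with fenofibrate, where all 4 Fenofibrate libraries were below all HFD and Control libraries. Fenofibrate library 3 (15.6%) and HFD library 2 (15.7%) were nearly tied. Rpl7l1, a nucleolar relative of Rpl7, stood at 14.6% ± 2.64, 15.4% ± 2.14 and 16.8% ± 1.55.

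Rpl3l, the striated muscle paralogue of Rpl3, had 0 to 3 counts in 10 of the 12 libraries, and 43 and 21 counts in Fenofibrate libraries 1 and 3. These are the same 2 libraries that held 257 and 209.5 CPM of striated muscle markers, without TMM scaling. Rpl3l did not pass the low-count filter of edgeR. It was called as rising in both Fenofibrate comparisons with no filter, and in Fenofibrate against Control by DESeq2. Rpl10l and Rps4l, paralogues of Rpl10 and Rps4x, were not analysed here.

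Some members are often used as references in quantitative PCR, and their coefficients of variation over the 12 libraries differed widely. Rplp0, also written 36B4, had 13.3%, Rps18 19.8%, Rpl19 23.3%, Rpl32 24.1%, Rps16 24.6% and Rpl13a, which rests on few counts, 29.6%. None of the 6 passed in any comparison. For non-ribosomal references the values were 5.50% for Sdha, 7.91% for Ywhaz, 12.2% for Gapdh, 24.6% for Actb and 31.1% for Tfrc. Rplp0 had its lowest value of 434 CPM in Fenofibrate library 4 and its highest of 669 CPM in Control library 2, a ratio of 1.54. For Rps16 the ratio was 2.08.

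GC content of the transcript moved with the members' changes. Over the 79 members, Pearson's r of log2 change with GC content was -0.40 for HFD against Control, 0.44 for Fenofibrate against HFD and 0.215 for Fenofibrate against Control. Over 13468 genes the values were -0.22, 0.36 and 0.115. The points share libraries and scaling, and the values are descriptions across genes, which are not replicates. In Fenofibrate against HFD, the 20 members of lowest GC (40.6% to 48.5%) had a median log2 change of -0.30 and none was positive, while the 20 of highest GC (54.6% to 60.8%) had -0.11 and 7 were positive. Other protein-coding genes tested had medians of -0.125 in the first GC range (4116 genes) and 0.197 in the second (2966 genes). The members' medians were thus the lower ones in both ranges. The part of GC content in the results for Rplp2, Rpl28, Rps9 and Rpl8 was not tested.

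**Figure D5:**
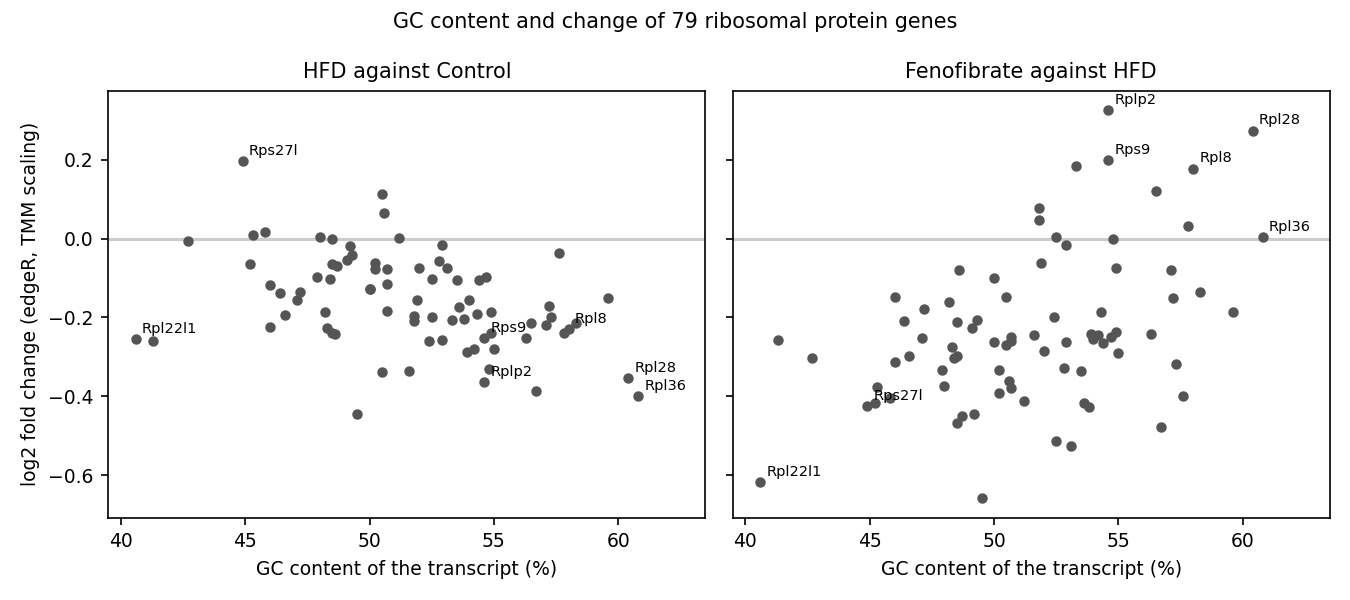
Log2 change of each tested member against the GC content (%) of its transcript, for HFD against Control and Fenofibrate against HFD. Members of high GC lie lower in the first panel (r = -0.40) and higher in the second (r = 0.44).

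Genes of the rest of the pathway were taken from lists chosen with earlier results of these data known. Among ribosomal genes outside the symbol rule, 5 were tested (among them Fau, Rack1, Rpl36al and Rps27rt) and none passed by edgeR in any comparison, with 0 also at an unadjusted p under 0.05. Fau, a ubiquitin-like fusion of a small-subunit protein, had means of 203 ± 40.8, 164.5 ± 27.5 and 176 ± 24.6 CPM in Control, HFD and Fenofibrate. Rack1, a scaffold on the small subunit, had 345 ± 65.7, 310.3 ± 20.6 and 288 ± 27.2 CPM.

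Of 68 ribosome biogenesis factors tested, 11 fell and 0 rose in HFD against Control, beside the background of 6.64% and 6.13% of all genes. The largest falls were in Rrp1b (log2 change -1.18 ± 0.24, adjusted p = 0.0054), Nle1 (-0.91 ± 0.17, adjusted p = 0.00221), Rrp12 (-0.89 ± 0.15, adjusted p = 0.00139) and the nucleolar helicase gene Ddx21 (-0.54 ± 0.11, adjusted p = 0.00638). These 4 kept their calls without Fenofibrate libraries 1 and 3 and without any single library. Fewer factors passed without 1 library, down to 5, and 7 fell without Fenofibrate libraries 1 and 3. In Fenofibrate against HFD 4 rose and 3 fell (6.89% and 6.59% of all genes), and none did without Fenofibrate libraries 1 and 3.

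In Fenofibrate against Control 17 of the 68 fell and 0 rose, where 4.31% and 4.86% of all genes did, led by Nop58, a core protein of box C/D particles (-0.95 ± 0.15, adjusted p = 0.00141), Gnl3, which encodes nucleostemin (-0.68 ± 0.15, adjusted p = 0.0104), Wdr43 (-0.62 ± 0.10, adjusted p = 0.00174) and Rpf1 (-0.58 ± 0.13, adjusted p = 0.0126). Without Fenofibrate libraries 1 and 3, 2 fell, Nop58 and Wdr43 passing (adjusted p = 0.0223 and 0.0346) and Gnl3 (adjusted p = 0.157) and Rpf1 (adjusted p = 0.109) not. Without 1 library the number was at least 7. With total counts in place of TMM, 5 fell in HFD against Control and 5 in Fenofibrate against Control.

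Of 20 genes of RNA polymerase I and rDNA transcription, 1 rose and 1 fell in HFD, 1 rose and 2 fell in Fenofibrate against HFD, and 1 rose and 2 fell in Fenofibrate against Control. Of all genes, 6.13% rose and 6.64% fell in the first comparison, 6.89% and 6.59% in the second and 4.86% and 4.31% in the third, so these counts lie near the background. With Fenofibrate libraries 1 and 3 left out, 1 rose and 1 fell in HFD and 0 passed in the others. Polr1a, the largest subunit of RNA polymerase I, fell in HFD (-0.49 ± 0.11, adjusted p = 0.00688) and rose in Fenofibrate against HFD (0.54 ± 0.10, adjusted p = 0.00531), and the latter call was lost without Fenofibrate libraries 1 and 3 (adjusted p = 0.102).

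Of 32 initiation factors, 1 rose and 5 fell in HFD, 4 rose and 2 fell in Fenofibrate against HFD, and 0 rose and 3 fell in Fenofibrate against Control, beside rising and falling shares of all genes of 6.13% and 6.64%, 6.89% and 6.59%, and 4.86% and 4.31%. With Fenofibrate libraries 1 and 3 left out, 1 rose and 1 fell in HFD and 0 passed in the other comparisons. With 1 library left out, the number falling ran from 1 to 5, 0 to 6 and 0 to 5 in the 3 comparisons. Eif6, which keeps the large subunit from joining too early, had 54.4 ± 3.803 CPM in Control, 40.6 ± 4.00 in HFD and 52.8 ± 4.70 with fenofibrate. It fell in HFD (-0.42 ± 0.10, adjusted p = 0.0109; 0.0639 with total counts in place of TMM) and rose in Fenofibrate against HFD (0.38 ± 0.10, adjusted p = 0.0216), where the call was lost without HFD library 1 (adjusted p = 0.0697), without Fenofibrate library 1 (0.0705) or 3 (0.0511) and without both (0.237).

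Of 18 elongation factors and other TOP messenger RNAs, 0 rose and 1 fell in HFD, 2 rose and 0 fell in Fenofibrate against HFD, and 0 rose or fell in Fenofibrate against Control by edgeR, with 1 falling at an unadjusted p under 0.05. Of all genes, 6.64% fell in HFD and 6.89% rose in Fenofibrate against HFD. Without Fenofibrate libraries 1 and 3, 1 fell in HFD and 0 passed otherwise. Eif3f, an initiation factor subunit, fell in HFD (-0.42 ± 0.11, adjusted p = 0.024) and rose in Fenofibrate against HFD (0.60 ± 0.11, adjusted p = 0.00442). For the first, leaving out Control library 1 gave an adjusted p of 0.0853, and HFD libraries 1 and 3 gave 0.0725 and 0.0649, and total counts gave 0.104. For the second it was 0.0722 without Fenofibrate libraries 1 and 3. Eef2, the elongation factor that moves the ribosome along, rose in Fenofibrate against HFD (0.35 ± 0.10, adjusted p = 0.0313), a call lost without any 1 of the HFD libraries or of Fenofibrate libraries 1, 3 and 4 (adjusted p from 0.0533 to 0.0882), and without libraries 1 and 3 together (log2 change 0.33, adjusted p = 0.232). It was lost with no low-count filter as well (adjusted p = 0.104).

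Of 25 regulators of TOP messenger RNAs and mTORC1, 0 rose and 2 fell in HFD, and 2 rose and 2 fell in Fenofibrate against HFD, beside 6.13% and 6.64% of all genes in HFD and 6.89% and 6.59% in Fenofibrate against HFD. With Fenofibrate libraries 1 and 3 left out, 2 fell in HFD and 0 passed in Fenofibrate against HFD. Larp1 fell in HFD (-0.47 ± 0.12, adjusted p = 0.0192), and leaving out Control library 1 gave an adjusted p of 0.0589, and HFD libraries 2 and 4 gave 0.0507 and 0.0551, and total counts gave 0.0653. In Fenofibrate against Control none of the 25 passed by edgeR, with 4 rising and 4 falling at an unadjusted p under 0.05. Mitochondrial ribosomal proteins, the counterpart in the other ribosome, had 3 of 77 members rising and 0 falling in HFD, where the cytosolic members had 0 and 1 of 79. In Fenofibrate against HFD 2 rose and 4 fell, and in Fenofibrate against Control 0 did either by edgeR, with 6 and 4 at an unadjusted p under 0.05. Of all genes, 6.13% rose and 6.64% fell in HFD, and 6.89% and 6.59% in Fenofibrate against HFD. For Fenofibrate against Control the shares were 4.86% and 4.31%, and 11.9% and 12.7% at an unadjusted p under 0.05. None of the mitochondrial counts was above its background. Leaving out Fenofibrate libraries 1 and 3 left 2 rising in HFD and none passing in the other comparisons. The median log2 change of the mitochondrial set was 0.07, -0.11 and 0.0043 in the 3 comparisons, beside -0.17, -0.26 and -0.38 for the cytosolic one.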

How the data were processed

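Liver RNA of 12 mice was analysed. The values are raw read counts per gene in 2 deposited tables, per the file headers, with the 4 HFD libraries in both. The tables were joined by gene identifier (22657 shared, 1389 and 1118 in 1 table), a missing gene was given counts of 0, and HFD cells differed in 0 cases. The submitters' processing notes name HISAT2 2.0.5, StringTie 1.3.2d and HTSeq 0.6.0 with no settings, and list the builds mm8 and mm9, while 73 of 82 members have the position of GENCODE M21 on GRCm38.

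Genes passing filterByExpr (13477 of 25164) were scaled by TMM and fitted with edgeR 4.0.16 (R 4.3.3) over 12 libraries with 1 coefficient per group. The common biological coefficient of variation was 0.155. Log2 changes use a prior count of 0.125, and SE is the absolute change over the root of the F statistic. Alternatives used DESeq2 1.42.0, limma 3.58.1 (voom), other scalings and filters, and libraries left out. Steps were tested on simulated counts. In the 18 pairs of libraries within groups, chi-square divided by the number of genes lay between 14.6 and 40.9, above counting error. Same-numbered libraries had r from -0.15 to 0.12 after group means were removed, so numbers were not taken as pairs.

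The members and lists were chosen with earlier results of these data known. Named by rule were passing members, the 6 most abundant per length, Rplp0, Rplp1, Rplp2, Rpsa, paralogues, PCR references, untested members, the extremes of variation and up to 4 passing genes of a list; other members were named after their values were seen. A few genes are not reported here. Transcript length and GC content are from the principal GENCODE M21 transcript of lower-median length, a choice made after values were seen.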

Additional observations from a re-analysis of the deposited data

Results flagged for a closer look

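In 75 groups of 4 libraries examined (named members, the share of counts and the subunit ratio), 4 had 1 library far from the other 3, by Dixon's criterion on the gap over the group's range. Chance gives about 1 in 20. In all 4 it was Fenofibrate library 2. Rpl8 stood at 337.1 CPM there and at 299.8 to 303.8 CPM in the other Fenofibrate libraries, Rps10 at 116.3 CPM against 91.7 to 94.1 CPM, Rps27a at 154.5 CPM against 112.4 to 117.0 CPM, and Rpl4, a large-subunit protein of the exit tunnel, at 570.3 CPM against 474.1 to 484.4 CPM. In that library 77 of 79 members were above the mean of the group.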

How the results depend on the processing

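Falling members in HFD against Control numbered 3 with DESeq2, 0 with total counts, 0 and 4 at adjusted p under 0.01 and 0.10, 0 without Fenofibrate libraries 1 and 3, and 0 to 4 without 1 library (4 without Control library 1, 3 without HFD library 4, 0 without Control library 3, HFD library 1, 2 or 3, or Fenofibrate library 1 or 4). In Fenofibrate against HFD, falling and rising members numbered 4 and 1 with DESeq2, 0 and 6 with total counts, 3 and 1 with no low-count filter, 7 and 1 with only the 8 libraries compared, 6 and 1 at adjusted p under 0.10, and 0 to 8 and 0 to 1 without 1 library (7 without Control library 1, 8 without Fenofibrate library 2, 1 without Control library 2 or HFD library 3). In Fenofibrate against Control, falling members numbered 8 with DESeq2, 11 with no low-count filter, 14 at adjusted p under 0.10, and 0 with limma-voom, total counts, the 8 libraries compared, adjusted p under 0.01 or without Fenofibrate libraries 1 and 3, and 0 to 56 without 1 library (1 without HFD library 1, 3 or 4). Rising members numbered 1 there with DESeq2 and with no filter. The cause was not tested, beyond fewer libraries or another threshold by construction. The shares of all genes called under these settings are not given here, so these counts stand without a background.

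With the replicate number as a block, 0 members fell in Fenofibrate against Control, 1 in HFD against Control and 0 in Fenofibrate against HFD; the numbers share no stated animal, day or batch, so this pairing is no part of the design.

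Shares of counts in members rose with a smaller denominator: without the 20 most abundant genes to 2.08% in Control, 1.93% in HFD and 1.84% with fenofibrate, and without mitochondrially encoded genes to 1.603% in Control, 1.49% in HFD and 1.44% with fenofibrate. On TMM-scaled sizes the shares were 1.547% in Control, 1.394% in HFD and 1.22% with fenofibrate. Some log2 changes turned sign. With total counts those of Fenofibrate against Control were 0.18 for Rplp2, 0.14 for Rpl28, 0.16 for Rps9 and 0.16 for Rpl8. Without 1 library, Rplp2 ran from -0.10 to 0.0239 (positive without Control library 1 or 3 or Fenofibrate library 1 or 2) and Rpl28 from -0.13 to 0.00993 (Control library 2) in Fenofibrate against Control. In HFD against Control, Rps21 ran from -0.25 to 0.0281 (positive without Control library 2 or HFD library 2), Rpl22l1 from -0.47 to 0.0038 (Control library 2) and Rpl10 from -0.0403 (without Control library 1) to 0.17. None of these changes had passed. With the longest transcript in place of the lower-median one, r with GC content over members was -0.41, 0.37 and 0.13. Rpl24, Rpl3l and Rpl39l did not pass the low-count filter.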
